A study of Arabidopsis thaliana and Brassica oleracea with 14 samples.

Results

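The response of Brassica oleracea leaves to drought was measured on 7 of the 14 macroarrays of the series, 4 from watered plants (controls) and 3 from droughted plants, chosen by their sample titles. The other 7 arrays hold Arabidopsis thaliana RNA. All B. oleracea plants were of subspecies alboglabra (Chinese kale), line A12DH, a doubled haploid line, and were 4 weeks old, with no transgene or mutation named in the labels. They grew under a 16 h photoperiod and were fed a mineral solution once a week. Drought plants went without water for 5 days, until their leaves held 45% relative water content on average (spread 15), while watering of the controls went on. A macroarray is a membrane spotted with DNA probes, here hybridised with cDNA made from 10 µg of leaf RNA and labelled with 33P. Each RNA came from leaves of 5 plants and was pooled, per the labels. Whether arrays of a group came from separate pools of plants is not in the labels, so the spread behind each p-value is that of arrays and may be partly technical.

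The title of the series asks about genes for PP2C protein phosphatases. In A. thaliana, leaves that lose water accumulate abscisic acid. Receptors of the PYR/PYL family that hold this hormone bind and block PP2C phosphatases of clade A, and the kinases that those phosphatases had kept inactive then act on ion channels, which closes stomata, and on transcription factors that induce genes of dehydration tolerance. Several of these PP2C genes are themselves induced by drought in A. thaliana, where they dampen the pathway.

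Each array gives 768 positions (rows A to P, columns 1 to 48). Adjacent columns were read as duplicate spots of 1 probe, which makes 24 position pairs in each of 16 rows, all of them tested. The labels give 522 spotted features per array, and this number was not reconciled with the pairing. Whether both spots of every pair hold the same probe is therefore not established. Statements below on probes and on the agreement of spots rest on this reading. No gene was paired with a position here, so results name positions, and the leaf label was not checked against marker genes. A pair's signal over background is its mean total intensity minus its mean background, in imager units. Its normalized signal is on a log2 scale after background correction and quantile normalization over the 7 arrays, which gives every array the same distribution of values. No blank spot is named. The 96 pairs of the even-lettered rows at columns 25 to 48, called the low block, took the place of blanks, and a pair counted as above the low block on an array when its signal over background exceeded the 95th percentile of those 96 pairs. The low block is not empty. On the drought arrays J41/J42 gave 401, 174 and 83.1 units and P47/P48 gave 219, 77.3 and 150 units, against 27.0 units or less on any control.

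Some arrays stood apart from others of their group. Drought replicate 3 had a median background of 731 units, against 85.7 to 115 units on the other 6 arrays. Among the 25 pairs above the low block on all 7 arrays, the normalized signals of drought replicate 3 followed those of controls 1 and 2 (Pearson correlations of 0.851 and 0.910) more closely than those of drought replicates 1 and 2 (0.516 and 0.321). Controls 3 and 4 correlated with drought replicates 1 and 2 at 0.875 to 0.904, and with controls 1 and 2 at 0.641 to 0.787. Over all pairs outside the low block, dim ones included, drought arrays correlated with each other at a Spearman correlation of 0.627 to 0.772 and with controls at 0.283 to 0.536, while controls correlated with each other at 0.283 to 0.494. These correlations run across pairs measured on the same arrays and are given as a description.

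Outside the low block, the median and the 95th percentile pair were brighter over background, in imager units, on drought arrays than on controls. The median of the low block itself was 0.03, 0.46, -0.66 and -0.28 units on controls 1 to 4. On drought replicates 1 to 3 it was 0.01, -0.24 and 0.02 units. The median pair outside the low block read 3.57, 2.37, 1.88 and 1.46 units over background on controls 1 to 4 and 18.5, 9.60 and 14.5 units on drought replicates 1 to 3. Control arrays averaged 2.32 ± 0.911 units (SD, n = 4) and drought arrays 14.2 ± 4.48 units (SD, n = 3), with every drought array above every control (exact permutation p = 0.0286, 2-sided, the smallest that the 35 splits of 7 arrays can give). The pair at the 95th percentile read 91.6, 83.0, 37.6 and 16.9 units on the controls and 507, 229 and 301 units on the drought arrays. Its mean rose from 57.3 ± 35.9 units (SD, n = 4) to 346 ± 145 units (SD, n = 3), a ratio of 6.03, and here too all drought arrays exceeded all controls (exact permutation p = 0.0286). The separation depends on the scale of drought replicate 3, whose background was high. As a multiple of each array's median total intensity, a scale added after the data were seen, the 95th percentile pair stood at 0.877, 0.843, 0.325 and 0.165 on the controls and at 4.47, 2.49 and 0.408 on the drought arrays (exact permutation p = 0.0857). The median pair stood at 0.0342, 0.0241, 0.0163 and 0.0143 on the controls and at 0.163, 0.104 and 0.0197 under drought (exact permutation p = 0.0857). For both measures, drought replicates 1 and 2 were above every control and drought replicate 3 lay between the controls. In bulk leaf RNA, a change in the make-up of the tissue and a change in transcript level per cell cannot be told apart. Each array had 10 µg of RNA, so the total RNA per cell was not measured. The image exposure of each membrane is not given in the sources used here, and the cause of the brightness was not tested.

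With this brightness, more pairs stood above the low block under drought. Of the pairs outside it, which fill the other 3 blocks of 96 pairs, 37.2%, 24.3%, 30.9% and 19.4% were above on controls 1 to 4 and 71.9%, 67.0% and 49.0% on drought replicates 1 to 3. Drought replicate 3, the lowest of its group, was still above the highest control. Controls averaged 28.0% ± 7.73 (SD, n = 4) and droughted leaves 62.6% ± 12.1 (SD, n = 3), which is 34.7 percentage points apart (exact permutation p = 0.0286), and 41.5 points without drought replicate 3. The direction depends on the limit: with the 99th percentile of the low block in place of the 95th, the difference was -6.97 points, and with its highest pair it was -6.74 points. Without J41/J42 and P47/P48 in the block, a choice made after the data were seen, differences at these limits were 38.3 and 35.6 points. Both pairs are bright on drought arrays, so leaving them out lowers the limit there by construction and is no independent support.

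The spots of a pair also agreed better on drought arrays, while the spread of signal over probes did not change detectably. The Spearman correlation between the left and right spots over these pairs was 0.408, 0.472, 0.302 and 0.272 on controls 1 to 4 and 0.861, 0.779 and 0.648 under drought, a difference of 0.399 between the means (exact permutation p = 0.0286). With Pearson's r on normalized values in its place, the means were 0.114 apart (exact permutation p = 0.0571). The 10 brightest pairs held 76.0% ± 5.39 of the summed signal (SD, n = 4) with water and 72.8% ± 8.06 (SD, n = 3) without, with overlapping arrays (exact permutation p = 0.571), and the difference of -3.23 percentage points was 1.39 without drought replicate 2. After Benjamini-Hochberg adjustment over the 5 array measures, the exact permutation p was 0.0357 for each of the 4 that separated the groups. These 4 measures rest on the same 7 arrays and are not independent of each other.

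**Figure D1:**
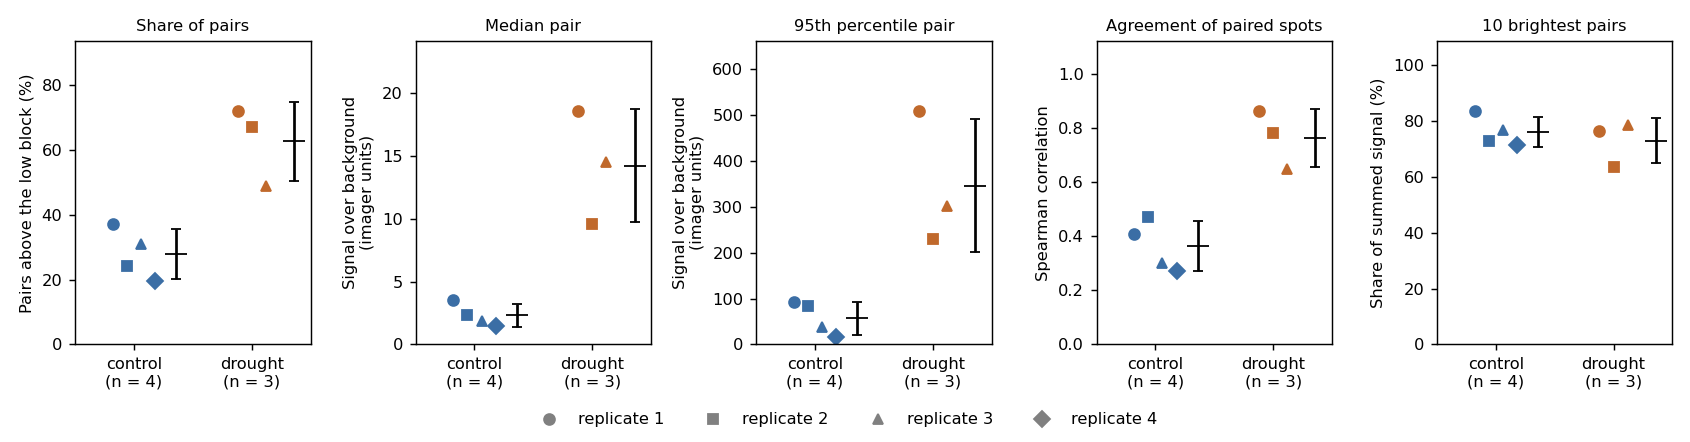
Each panel plots 1 measure per array of B. oleracea, with points for arrays (shape gives the replicate number), a bar for the group mean and error bars for the SD: the share of pairs above the low block in percent, the median and the 95th percentile of signal over background in imager units, the Spearman correlation of paired spots, and the share of summed signal in the 10 brightest pairs in percent. In the first 4 panels the 3 drought arrays lie above the 4 controls, and in the last the groups overlap.

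The authors' normalized values refer to a single probe, the pair G21/G22. In their deposited table, 100 equals the mean volume (total minus background, or 0 where that is negative) of spots G21 and G22 of the same array on 14 of 14 arrays, within 0.02 units. No other pair matched on more than 1 array. G21/G22 is named here after its values were seen. Its mean volume was 3.67, 0.730, 3.01 and 1.66 units on controls 1 to 4, where it was not above the low block, and 35.3, 20.6 and 1.70 units on drought replicates 1 to 3, where it was above the low block on the first 2. On drought replicate 3 the background of the pair exceeded its total, with a difference of -7.78 units, and 84 of the 96 pairs of the low block read higher. On controls 1 to 4, 23, 46, 12 and 41 of those 96 pairs read higher than G21/G22, while on drought replicates 1 and 2 it was 2 each. The median of the deposited table's column was 70.8, 312, 35.5 and 51.3 for controls 1 to 4 and 28.0, 26.7 and 555 for drought replicates 1 to 3. The normalized log2 signal of G21/G22, scaled over all probes, averaged 4.84 ± 0.10 (SD, n = 4) on controls against 5.00 ± 0.47 (SD, n = 3) under drought, 0.16 higher with an SE of 0.22 (limma adjusted p = 0.768).

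**Figure D2:**
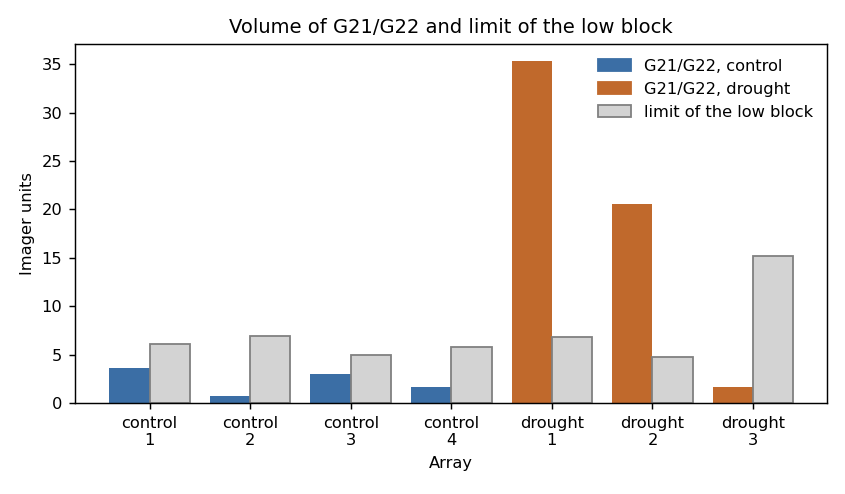
Bars give, for each B. oleracea array, the mean volume of G21/G22 in imager units (blue for control, orange for drought) beside the limit of the low block on that array (grey). G21/G22 is above the limit on drought replicates 1 and 2, at 35.3 and 20.6 units, and below it on the other 5 arrays.

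The probe with the highest mean normalized signal over the 7 arrays was C9/C10, whose signal over background was 8032, 1477, 992 and 431 units on controls 1 to 4 and 12060, 1554 and 6545 units on drought replicates 1 to 3. After normalization it averaged 11.35 ± 0.12 (SD, n = 4) on controls against 10.70 ± 0.61 (SD, n = 3) under drought. On 4 arrays it was the top value of the common distribution, 11.40, so a rise above the other probes there would not be seen. The local background at C9/C10 was 8.33 times the array median on average in controls and 15.2 times under drought, and its part in the result was not tested. D3/D4 and J3/J4 followed, both with group means that differed by less than the spread between arrays. D3/D4 averaged 10.16 ± 0.77 (SD, n = 4) on control arrays against 10.28 ± 0.64 (SD, n = 3) on drought arrays, and J3/J4 10.20 ± 0.62 (SD, n = 4) against 10.22 ± 0.35 (SD, n = 3). The 95% intervals of their drought differences were -0.91 to 1.13 and -0.75 to 0.80, so changes within these intervals, in either direction, are not excluded. The other 7 of the 10 brightest pairs (P23/P24, M5/M6, M21/M22, G15/G16, J13/J14, A23/A24 and G9/G10) had fitted differences between -0.85 and 0.40, with limma adjusted p of 0.634 or more.

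Several of these bright probes varied far more among arrays of 1 treatment than between the treatments. M5/M6 read 7.50, 8.25, 10.36 and 9.59 on controls 1 to 4 and 9.59, 11.40 and 6.92 on drought replicates 1 to 3 on the normalized log2 scale. G15/G16 read 7.38, 7.21, 10.12 and 9.43 on the controls and 9.59, 10.78 and 6.43 under drought. G9/G10 read 7.30, 7.30, 9.26 and 8.81 on the controls and 9.19, 9.99 and 6.30 under drought. At these 3 pairs controls 3 and 4 and drought replicates 1 and 2 were high, and controls 1 and 2 and drought replicate 3 were low. H21/H22, named here after its values were seen, had the same high and low arrays, with 6.80, 7.65, 9.42 and 9.24 on the controls and 8.56, 9.19 and 6.23 under drought. A7/A8 departed from this order at control 1, with 9.19, 6.75, 9.96 and 8.85 on the controls and 8.94, 8.50 and 5.68 under drought. Drought replicate 3 was the lowest of the 7 arrays at all 5 of these pairs and at none of the other 20 pairs above the low block on all arrays. Before normalization, M5/M6 read 113, 131, 556 and 205 units over background on the controls and 2555, 1717 and 224 units under drought. The same arrays were then high and low within each group, but drought replicate 3 was above control 4.

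Other bright probes were high where those were low. J13/J14 read 9.24, 9.59, 7.65 and 7.68 on controls 1 to 4 and 8.34, 7.36 and 9.56 on drought replicates 1 to 3. P23/P24 followed this in part. It was highest on drought replicate 3, at 11.40, and lowest on drought replicate 1, at 7.98. On controls 1 to 4 it read 9.84, 9.99, 8.52 and 10.71, so control 4 departed from the order. Over the 25 pairs above the low block on all 7 arrays, the median range was 1.34 log2 units among the 4 controls and 1.63 among the 3 drought arrays, while the median size of the drought difference was 0.28. The drought difference was smaller than the range of the controls at 22 of the 25 pairs. Of these 25 pairs, 13 had a higher and 12 a lower drought mean, with a median difference of 0.02, against -0.06 over all pairs of the membrane.

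**Figure D3:**
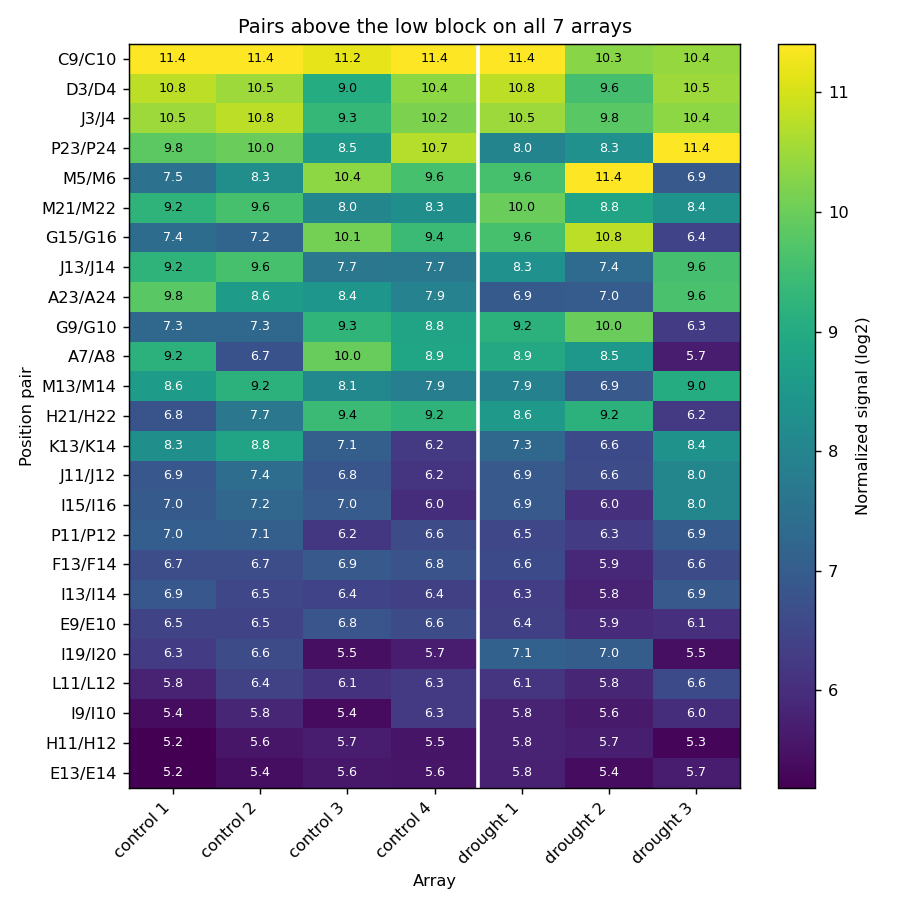
Colours and numbers give the normalized log2 signal of the 25 pairs above the low block on all 7 arrays (rows, ordered by mean signal) on each array (columns, controls left and drought right of the white line). M5/M6, G15/G16, G9/G10 and H21/H22 are high on controls 3 and 4 and drought replicates 1 and 2 and low on the other 3 arrays.

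The comparison of drought with control over all probes asked which transcripts change in droughted leaves. limma tests each pair against its own spread, drawn toward a spread common to all pairs. It called 0 of all pairs (0%) at an adjusted p under 0.05. An unadjusted p under 0.05 was found at 43 (11.2%), 28 with a higher drought mean (7.29%) and 15 with a lower one (3.91%). Scaling to the array median instead gave 106 such pairs, 83 of them higher, and cyclic loess gave 37, 20 of them higher. The groups did not overlap at 50 pairs (13%), 25 brighter (6.51%) and 25 dimmer under drought (6.51%). At the median pair, the 95% interval of the difference spanned 0.45 log2 units above and below it. With no normalization between arrays, where the median of all pairs shifted by 0.84 log2 units, limma called 115 pairs, all higher.

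The leading pairs with a higher drought mean were dim on controls. Of the 10 chosen, 7 (E29/E30, M41/M42, A41/A42, E31/E32, K15/K16, H3/H4 and O33/O34) stood above the low block on each of the 3 drought arrays and on 0 of 4 controls, a way of being chosen that by itself favours a higher drought mean. E29/E30 had the smallest p, with normalized signals of 4.65, 3.99, 4.35 and 4.53 on controls 1 to 4 and 5.48, 5.41 and 5.39 on drought replicates 1 to 3. Its drought arrays lay within 0.10 of each other and above every control, and both of its spots were above the low block on each. The fitted difference was 1.05 with an SE of 0.18 (limma adjusted p = 0.147). Local background at E29/E30 was 1.14 times the array median in controls and 1.29 times under drought, and its part in the result was not tested. The pair was below its background on every control, at -0.595, -13.54, -6.235 and -3.255 units on controls 1 to 4. Because no control was above the low block, the size is given as a bound, 1.20-fold. The bound sets each dim control at the lowest signal of any pair above the low block on that array. It is taken from group means, carries no sampling error and holds for this processing only. Under an intensity trend of the spread, E29/E30 passed (limma adjusted p = 0.0265), and over its 22 alternatives the limma adjusted p ran from 0.000176 to 0.544.

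M41/M42 and A41/A42 had larger bounds and wider spreads. M41/M42 read 4.84, 3.98, 4.38 and 4.99 on the controls and 5.59, 5.68 and 6.24 under drought. Its limma adjusted p was 0.197 and its bound 1.59-fold. A41/A42 read 4.00, 4.34, 4.63 and 4.21 on the controls and 4.83, 6.12 and 6.01 under drought. Its limma adjusted p was 0.201 and its bound 1.40-fold. With no background subtraction the difference was 0.46 log2 units at M41/M42 (limma adjusted p = 0.0429) and 0.23 at A41/A42 (limma adjusted p = 0.689). Both are below the bounds, which are 0.67 and 0.49 log2 units. Local background at A41/A42 was 1.77 times the array median in controls and 1.06 times under drought, and at M41/M42 it was 1.05 and 1.07 times. Drought replicate 1 was the low drought array at A41/A42, and without it the pair passed (limma adjusted p = 0.0222, with a range of 3.84e-06 to 0.689 over its alternatives). E31/E32, K15/K16 and O33/O34 had bounds of 1.12, 1.04 and 1.03-fold, and H3/H4 had none above 1.

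The remaining leading pairs with a higher drought mean had some control signal above the low block. I1/I2 read 5.14, 4.94, 5.09 and 4.76 on the controls, 1 of which was above the low block, and 5.47, 5.78 and 6.36 under drought, 0.88 higher on average (SE 0.22, limma adjusted p = 0.201). The background moved with it: at I1/I2 it was 0.488 of the array median on average in controls and 1.21 under drought, and its part in the result was not tested. H3/H4, near the same edge, had background ratios of 0.790 and 1.14. P47/P48 and J41/J42 are the bright pairs of the low block. P47/P48 read 5.10, 4.41, 4.43 and 5.56 on the controls and 6.40, 6.04 and 6.37 under drought, 1.39 higher in the fit (SE 0.29, limma adjusted p = 0.197), with controls 2 and 3 below background. J41/J42 read 5.17, 6.19, 4.58 and 4.79 on the controls and 6.75, 6.82 and 5.80 under drought, with drought replicate 3 below control 2 (limma adjusted p = 0.349). The size of these differences depended on the background correction. With no background subtraction E29/E30 went from 1.05 to 0.16 (limma adjusted p = 0.505), P47/P48 from 1.39 to 0.17 (limma adjusted p = 0.712), and O33/O34 turned to -0.090. These pairs were chosen for a higher drought mean, so their common direction supports nothing further.

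**Figure D4:**
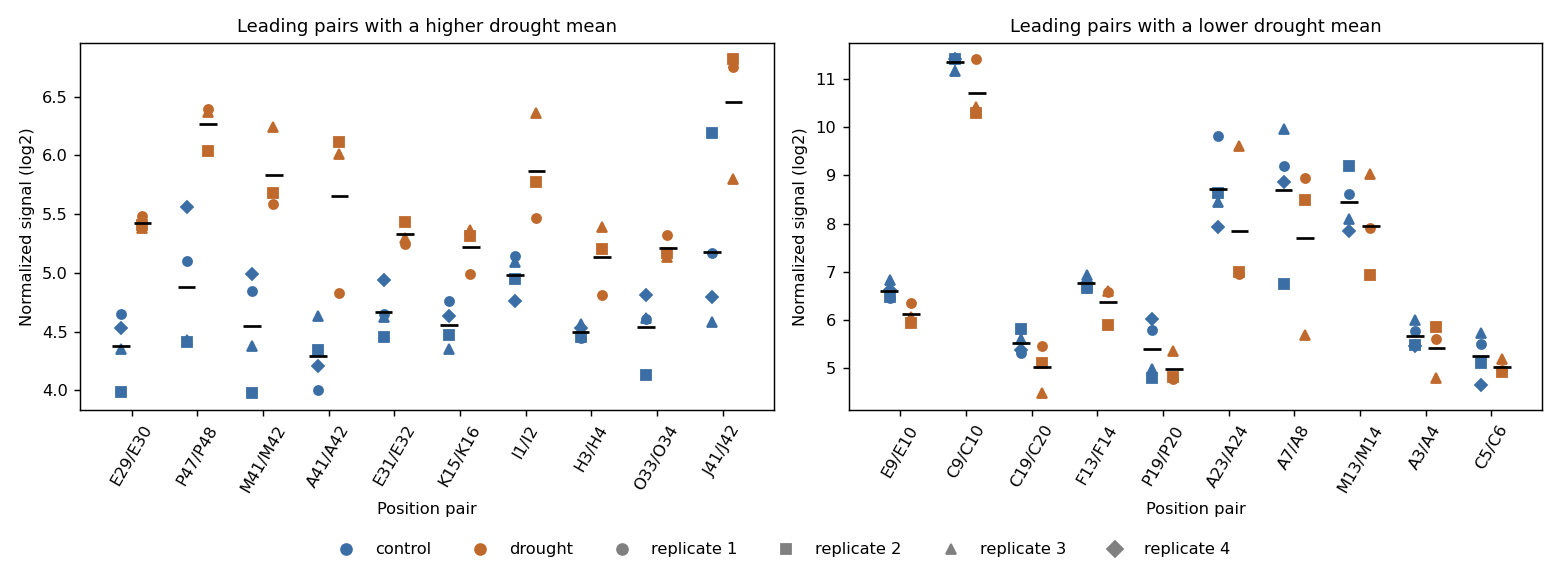
Points give the normalized log2 signal of each array at the 10 leading pairs with a higher (left) and a lower drought mean (right), blue for control and orange for drought, with shapes for replicate numbers and short bars for group means. On the left the groups do not overlap except at J41/J42, and on the right they overlap except at E9/E10 and F13/F14.

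The leading pairs with a lower drought mean were chosen among pairs with signal above the low block, and the direction of all 10 turned with no normalization between arrays. E9/E10 led, with 6.46, 6.47, 6.83 and 6.61 on controls 1 to 4 and 6.36, 5.93 and 6.06 on drought replicates 1 to 3. No array of a group overlapped the other group, and the difference was -0.48 with an SE of 0.17 (limma adjusted p = 0.382) after quantile normalization, 0.78 with median scaling, 1.60 with no normalization and 0.17 with no background subtraction. In imager units E9/E10 read 39.5, 36.0, 30.8 and 13.4 on the controls and 209, 64.7 and 112 under drought, with every drought array above every control, the opposite order. F13/F14 read 6.67, 6.66, 6.93 and 6.77 on the controls and 6.58, 5.90 and 6.60 under drought, which the fit put at -0.39 with an SE of 0.20 (limma adjusted p = 0.403) and at 0.97 with median scaling, 1.80 with no normalization and 0.066 with no background subtraction. C9/C10, described above, was put at -0.64 with an SE of 0.27 (limma adjusted p = 0.403), and at 0.88 with median scaling and 1.70 with no normalization.

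The other 7 leading pairs of this direction had overlapping groups. C19/C20 fell below the low block on drought replicate 3, with 5.31, 5.82, 5.61 and 5.38 on the controls and 5.46, 5.11 and 4.48 under drought (limma adjusted p = 0.403). A23/A24 read 9.82, 8.63, 8.45 and 7.94 on the controls and 6.94, 7.00 and 9.62 under drought, so drought replicates 1 and 2 were below every control and drought replicate 3 was not. M13/M14 likewise was higher on drought replicate 3, at 9.03, than on drought replicates 1 and 2, at 7.92 and 6.92, with controls between 7.85 and 9.19. Fitted differences of these 7 pairs lay between -0.98 and -0.22, with limma adjusted p of 0.403 to 0.725, and with no normalization all 7 were positive. P41/P42, within the low block, was lower on every drought array, with 4.93, 5.22, 5.28 and 4.89 on the controls and 4.29, 4.38 and 4.61 under drought (limma adjusted p = 0.201), but it was above the limit on 1 of 7 arrays and no fold is given.

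Pairs above the low block only on drought arrays were counted next, and their number depends on the limit. Outside the low block, 37 pairs (12.8%) were above it on all 3 drought arrays and on no control, and 0 pairs (0%) were above it on all 4 controls and on no drought array. Leaving out 1 array at a time gave 39 to 53 and 0, but this relaxes the rule, so neither count could fall. Both spots of the pair were above on all 3 drought arrays at 8 of the 37. Their mean normalized signals under drought lay between 4.93 and 5.83, with a median of 5.16, so these probes were dim. The bound was above 1 at 18 of the 37, and the highest was the 1.59-fold of M41/M42. At the 99th percentile of the low block both counts were 0, and at its highest pair they were 0 and 1. With limits chosen after the data were seen, the first count was 7 at the 99th percentile without P47/P48, and 40 without J41/J42 and P47/P48. A further 25 pairs were above on all 7 arrays, and 41 on none.

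The share of pairs above the low block was higher under drought in each of the other 3 blocks of the membrane, and differences between blocks were not tested. The right block of odd rows (odd-lettered, columns 25 to 48) had 10.4% ± 7.65 of its 96 pairs above the low block on control arrays (SD, n = 4) and 40.3% ± 7.39 on drought arrays (SD, n = 3). The left block of odd rows (columns 1 to 24) went from 42.4% ± 9.14 (SD, n = 4) to 78.5% ± 15.6 (SD, n = 3), and the left block of even rows from 31.0% ± 7.43 (SD, n = 4) to 69.1% ± 13.8 (SD, n = 3). The groups did not overlap in any of the 3 blocks. Of the 43 pairs with an unadjusted p under 0.05, 21 lay in the right block of odd rows, which is 21.9% of that block against 11.2% of all pairs, and 14 of the 21 had a higher drought mean. Large fitted differences there that missed the naming rule, given after their values were seen, were at M37/M38 (5.49 in controls and 6.88 under drought), M33/M34 (5.15 and 6.28) and A31/A32 (4.49 and 5.61). At M37/M38 drought replicate 1 read 5.12, below controls 2 and 4 at 6.85 and 5.60, and at M33/M34 and A31/A32 drought replicate 3 read 4.98 and 4.65, within the range of the controls. The local background moved with M37/M38, from 1.07 to 2.01 times the array median, and with M33/M34, from 1.10 to 3.63 times, and its part was not tested.

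**Figure D5:**
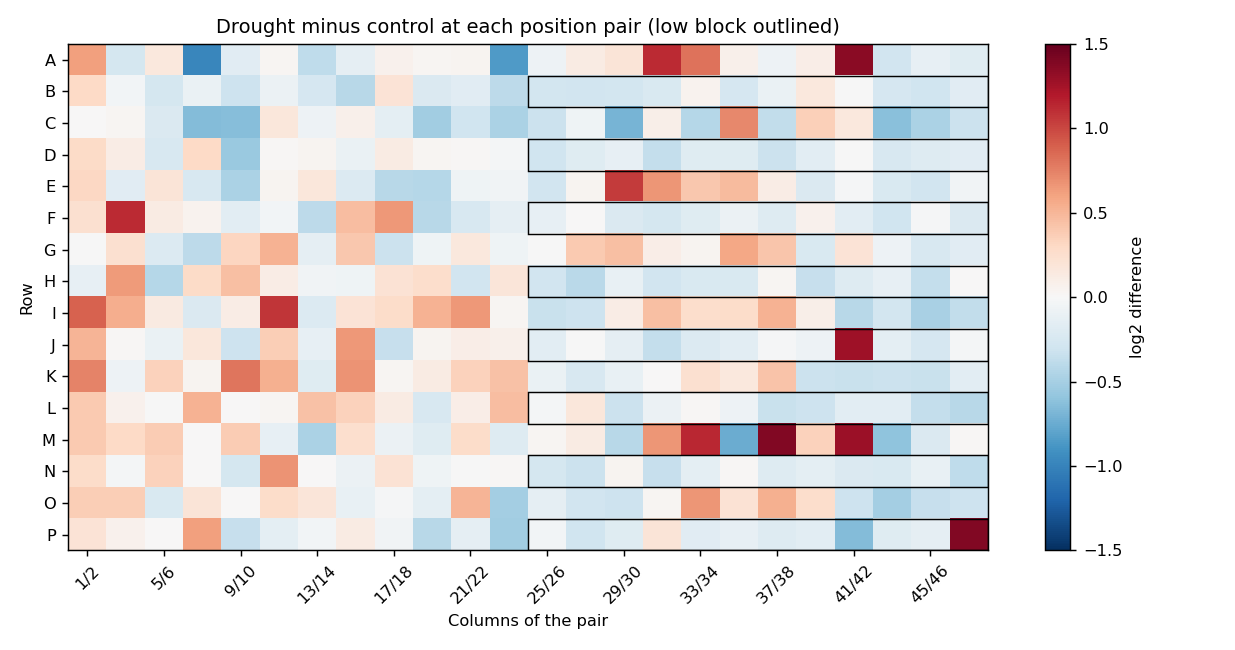
Each cell is 1 position pair in its place on the membrane (rows A to P, columns in pairs), coloured by the normalized log2 difference of drought minus control, with the 96 pairs of the low block outlined. J41/J42 and P47/P48 stand out within the low block, and pairs of rows A, E and M at columns 29 to 42 are among the highest.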

How the data were processed

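Leaf RNA of 7 B. oleracea samples was measured on 7 arrays. Per the file headers, the authors deposited for each spot a total intensity, a background intensity and their difference as a volume, which matched total minus background within 0.02 units (negative set to 0) at all but 3 of 5376 spots. Their deposited table of normalized signal is the volume as a percent of that of G21/G22. The imaging software is not given in the sources used here. Total intensities were corrected with normexp (offset 10.8 units, the median total divided by 10), log2 transformed and brought to a common distribution over the 7 arrays (quantile normalization), and each pair's spots were averaged. limma 3.58.1 in R 4.3.3 compared the groups, with Benjamini-Hochberg adjustment over all pairs and a threshold of 0.05. The fit was checked on simulated data. Array measures had 2-sided exact permutation tests. Pairs were named by rule: the 10 smallest p in each direction among pairs above the low block on every array of a group, since none passed, the 10 brightest pairs, and low block pairs with p under 0.01. Members, low block, tests and rules were chosen with earlier results of these data known. Alternatives changed background, scaling, filter, weights, value source and arrays. Gene and marker lists were not used, for want of gene names. The number of arrays limits precision.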

Additional observations from a re-analysis of the deposited data

Results flagged for a closer look

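Among the 34 sets of 4 control values looked at, 1 held an array far from the others, where chance gives about 1 in 20. At C9/C10 control 3 read 11.17 on the normalized log2 scale. The other 3 controls read 11.40, the top value of the common distribution, so that their own order is lost. With those 3 tied, any other value for control 3 would be flagged, and the rate of 1 in 20 does not apply. In imager units control 3 was not apart, at 992 units, between control 2 at 1477 and control 4 at 431.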

How the results depend on the processing

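The count of pairs past the threshold, 0 as reported, was 33 with no background subtraction (29 higher and 4 lower), 5 with median scaling, 115 with no normalization between arrays, 4 with the authors' table quantile normalized and 1 with an intensity trend, and 0 to 1 when 1 array was left out (1 without drought replicate 1). It was 0 under the other 9 alternatives. With the replicate number as a block it was 0, with 32 pairs at an unadjusted p under 0.05 in place of 43, and the numbers are not shown to pair the arrays (correlations of -0.0051, -0.31 and -0.38 between deviations of same-numbered arrays). Of 457 values of the 21 named pairs with a test, 29 changed sign. With no background subtraction these were O33/O34 (-0.090), E9/E10 (0.17), F13/F14 (0.066), M13/M14 (0.089), A3/A4 (0.36) and C5/C6 (0.19). With median scaling they were E9/E10 (0.78), C9/C10 (0.88), F13/F14 (0.97), A23/A24 (0.75), A7/A8 (0.19), M13/M14 (1.06) and A3/A4 (0.36). With no normalization they were E9/E10 (1.60), C9/C10 (1.70), C19/C20 (0.74), F13/F14 (1.80), P19/P20 (0.64), A23/A24 (1.58), A7/A8 (1.01), M13/M14 (1.88), A3/A4 (1.19), C5/C6 (0.76) and P41/P42 (0.20). P19/P20 was 0.33 in the authors' table and 0.025 in that table quantile normalized. With 1 array left out, M13/M14 ran from -1.03 to 0.052 (positive without drought replicate 2), A7/A8 from -1.65 to 0.040 and A3/A4 from -0.42 to 0.051 (both positive without drought replicate 3). The cause of these changes was not tested. Of the array measures, the share of pairs above the low block differed by -6.97 points at its 99th percentile, -6.74 at its highest pair, and, chosen after the data were seen, by 11.7 and -5.12 at these limits without P47/P48. The Pearson agreement of spots differed by 0.114. Divided by the median total of the array, also chosen after the data were seen, the median signal differed by 0.0736 and the 95th percentile by 1.90, both with an exact permutation p of 0.0857. With 1 array left out, the smallest possible p is 0.0667 or 0.1, above the threshold by construction. The differences then ran from 30.0 to 41.5 points for the share, 9.74 to 14.2 units for the median, 207 to 347 units for the 95th percentile, 0.350 to 0.456 for the agreement, and -6.01 to 1.39 points for the 10 brightest pairs, where the positive value came without drought replicate 2. Signal near background limits the controls most: 56 to 107 pairs were above the low block there.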

Other observations

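The authors' presence flag ran against the brightness of the arrays. It was set at 501, 474, 442 and 431 of 768 spots on controls 1 to 4 and at 211, 134 and 185 spots on drought replicates 1 to 3. Within the low block it was set at 83 to 107 spots per control array and at 4 to 7 spots per drought array. The lowest flagged volume was 0 to 0.03 units on the controls and 27.4, 27.4 and 16.6 units on the drought arrays.

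With no background subtraction, 32 of the 33 pairs that limma called lay in columns 1 to 6 or 47 to 48, which hold 64 pairs.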
